A study of Mus musculus with 16 samples.

Results

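The genes described here are 9 members of the NRF2 antioxidant pathway: Nfe2l2, which encodes NRF2, Keap1, the NRF2 targets Nqo1, Hmox1, Gclc, Gclm, Srxn1 and Txn1, and Cat, which encodes catalase. They were chosen by name among the 30214 gene names of the array, and all 9 were found. Their 11 probes (2 each for Hmox1 and Cat, 1 for each of the others) were well above background on all 16 arrays. The cells were AML12, an immortalized line of mouse hepatocytes. The cells held an shRNA of scrambled sequence (scramble) or one directed at eIF6 (eIF6 shRNA). This initiation factor binds the large ribosomal subunit and keeps it from joining the small one too early. Both shRNAs came from a lentivirus that doxycycline switches on, and the cells of all groups received doxycycline and then insulin for 1 h. The insulin dose is given as 100 nM in the sample descriptions and as 100 mM in the treatment protocol. The culture medium of all groups also held dexamethasone and a supplement of insulin, transferrin and selenium. Cell extracts were run on sucrose gradients, and RNA of the lighter fractions (subpolysomal) and of the heavier fractions (polysomal) was hybridized on separate one-colour arrays. There were 4 groups (scramble or eIF6 shRNA, subpolysomal or polysomal RNA) of 4 arrays, described as biological quadruplicates. Cells that received no insulin were not analysed here, so the values describe stimulated cells only.

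NRF2 is a transcription factor that KEAP1 holds in the cytoplasm and hands to the proteasome. Oxidants and electrophiles modify KEAP1, NRF2 then escapes, enters the nucleus and, paired with a small MAF protein, binds antioxidant response elements near its target genes. The targets reduce quinones (Nqo1), break down haem (Hmox1), make glutathione (Gclc and Gclm, the catalytic and the modifier subunit of glutamate-cysteine ligase), repair oxidized peroxiredoxins (Srxn1) and reduce protein disulfides (Txn1, thioredoxin). Catalase breaks down hydrogen peroxide in peroxisomes and is abundant in liver.

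The values are log2 signals, the log2 of the scanner intensity after quantile normalization, which gives all arrays the same distribution. A value is therefore relative to the other mRNAs of the same array, and a loss of mRNA from all polysomes would not show. Between 20196 and 24960 probes per array were well above background and none was saturated. Precision is limited by there being 4 arrays per group. The 16 arrays lay on 4 slides, each with 1 array of every group. Eif6, the target of the shRNA, had a polysomal log2 signal of 12.94 to 12.96 in scramble cells and 11.81 to 11.999 in eIF6 shRNA cells (change -1.05, adjusted p = 1.45e-07 from limma). This change is the mean over probes that changed by -1.38, -1.26 and, for the dimmest, -0.52. In subpolysomal RNA the target did not separate the labels (change 0.015, adjusted p = 0.915 from limma). Of 8 hepatocyte markers, Hnf4a, Krt8, Krt18, Trf, Ttr and Serpina1a were well above background on all arrays, while Alb and Apoa1, defining products of hepatocytes, were so on at most 3 of the 4 arrays of any group. Ttr was the one hepatocyte marker called, higher in eIF6 shRNA cells by 1.15 on polysomes and 1.33 in subpolysomes. The 6 fibroblast markers also gave signal in scramble cells, and all 6 were called lower in eIF6 shRNA cells in both fractions, with median changes of -3.10 on polysomes and -1.72 in subpolysomes. Of 5 macrophage and blood, 2 endothelial and 4 cholangiocyte markers tested, Csf1r alone was called, lower in both fractions. Some markers of these sets too had signal in scramble cells, with polysomal means of 13.09 for Krt19, 12.12 for Cd14 and 9.67 for Kdr. Others were low there, among them Pecam1 (4.78), Ptprc (3.89) and Epcam (2.69). The summed level of the fibroblast markers (log2 of the summed linear signal) lay between 16.60 and 17.43 on scramble polysomal arrays and between 13.26 and 14.03 on eIF6 shRNA polysomal arrays. In subpolysomal RNA it lay between 16.56 and 16.70 and between 14.92 and 15.59. Of the fibroblast markers, Pdgfra was not well above background on any eIF6 shRNA array. In RNA of whole cultures, fewer cells of a type and less of an mRNA per cell cannot be told apart.

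The sequence that NRF2 reads was looked for in the promoter windows that RefSeq gives for GRCm38.p6, from 250 bases before to 50 bases after a gene's start. Windows were at hand for 7 of the 9 genes. Hmox1 and Gclc had no entry. The core of the antioxidant response element was searched as TGACNNNGC on both strands, and 3 of the 7 windows held it once each, as did 12.4% of all 32851 windows. The matches are shown because these are the places near the starts of the 9 genes where the letters occur, which does not make them binding sites, with the 9 bases of the core in capitals and 10 bases on either side.
Nfe2l2: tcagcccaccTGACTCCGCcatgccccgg
Gclm: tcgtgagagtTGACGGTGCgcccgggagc
Srxn1: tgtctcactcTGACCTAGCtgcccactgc
All are printed 5′ to 3′ as they read on the minus strand of the genome. The Nfe2l2 stretch lies at chr2:75704885-75704913, on the strand of the gene, with the core at positions -240 to -232 from the start. The Gclm stretch lies at chr3:122245413-122245441, on the strand opposite to the gene, with the core at positions -134 to -126 from the start. The Srxn1 stretch lies at chr2:152105542-152105570, also opposite to the gene, with the core at bases 29 to 37 after the start. The windows of Keap1, Nqo1, Txn1 and Cat did not hold these letters. Elements farther from the start were not searched.

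**Figure D1:**
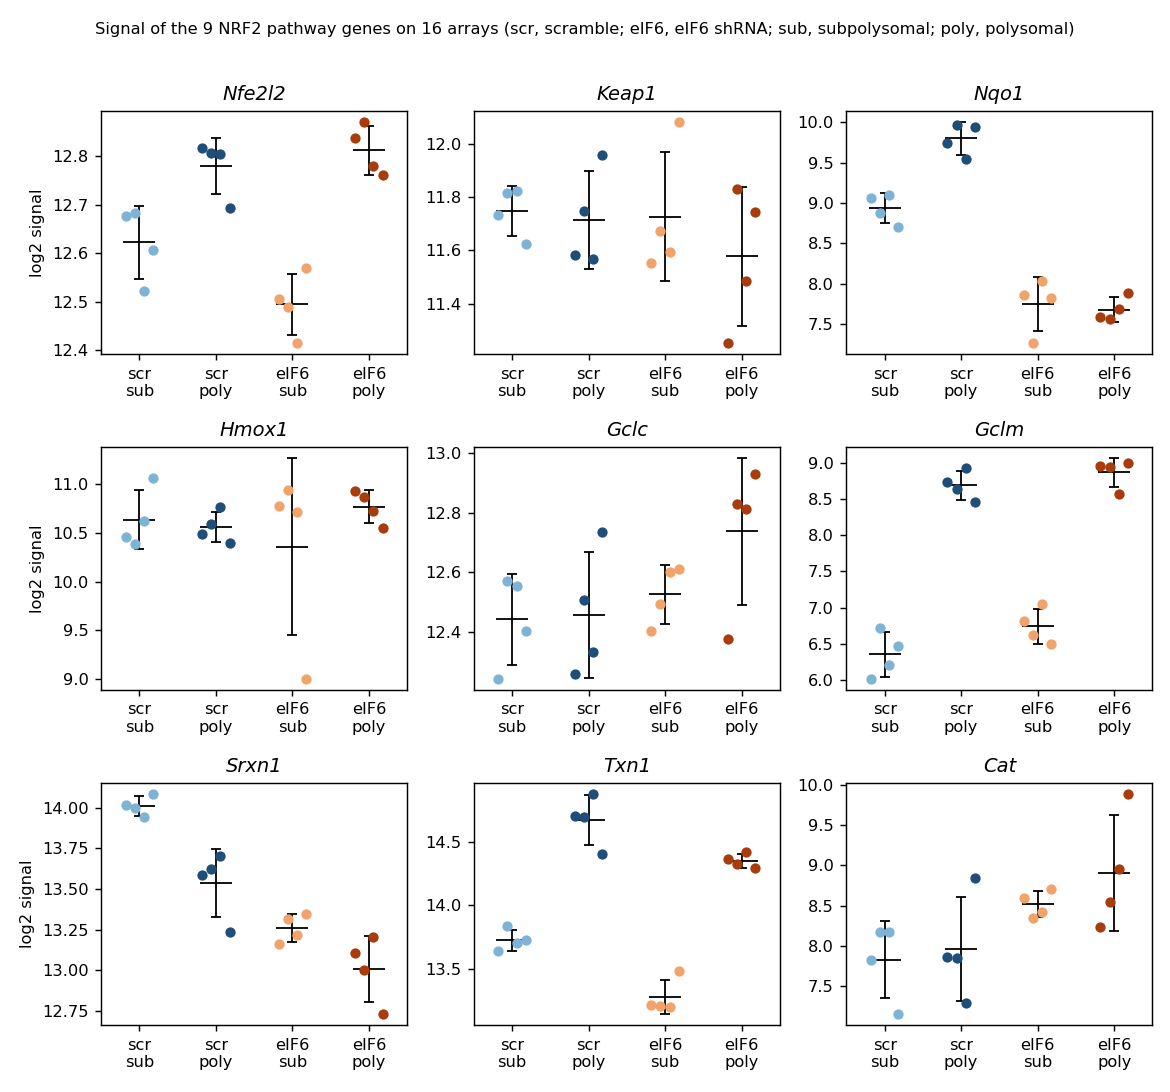
Log2 signal of each of the 9 genes (vertical axis, scaled per gene) on the 4 arrays of each group (horizontal axis; scr, scramble; eIF6, eIF6 shRNA; sub, subpolysomal; poly, polysomal). Points are arrays in the order of their replicate numbers and bars are mean ± SD. Nqo1 lies between 8.70 and 9.97 on scramble arrays and between 7.27 and 8.03 on eIF6 shRNA arrays, Srxn1 is lower with eIF6 shRNA in both fractions, and Gclm and Txn1 separate by fraction.

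The first question was which of these mRNAs changed on polysomes when eIF6 was depleted. Nqo1, Srxn1 and Txn1 fell on polysomes, Txn1 by a call that many alternatives did not keep, and the same 3 genes fell in subpolysomes. The polysomal change (eIF6 shRNA minus scramble in polysomal RNA) was 4.33-fold down for Nqo1, 1.44-fold down for Srxn1 and 1.25-fold down for Txn1. The other 6 genes, NRF2 and KEAP1 among them, were not called in either direction. Of the 9 genes, 3 were thus called lower and 0 higher on polysomes, where 10.7% of the 19367 genes tested were called lower and 11.1% higher (limma, Benjamini-Hochberg adjusted p under 0.05). In subpolysomes 3 were called lower and 0 higher, against 12.3% and 11.8% of all genes. At an unadjusted p under 0.05, Cat was the one gene higher on polysomes and Gclm the one gene higher in subpolysomes, against 16.7% and 18.2% of all genes higher at that threshold. The median change of the 9 genes was 0.03 on polysomes and -0.13 in subpolysomes, against 0.016 and 0.025 over all genes tested. The groups did not overlap for 2 genes on polysomes (Nqo1 and Srxn1) and for 4 genes in subpolysomes (Nqo1, Srxn1, Txn1 and Cat), as they did not for 22.4% and 31.5% of the genes with a value on every array compared. The fall of Nqo1, Srxn1 and Txn1 ran beside the fall of all 6 fibroblast markers given above, and the part of those cells or of that state in the result was not tested.

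**Figure D2:**
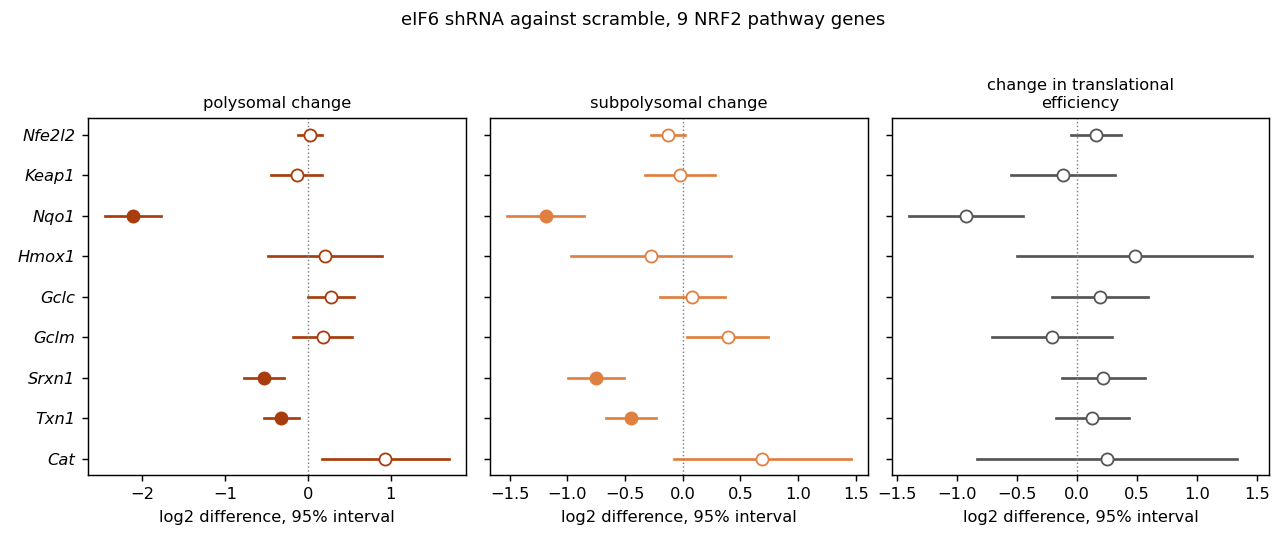
Log2 difference between eIF6 shRNA and scramble cells for each of the 9 genes in polysomal RNA, in subpolysomal RNA and in translational efficiency, the first minus the second. Lines are 95% intervals of the limma fit, and filled points are called at an adjusted p under 0.05. Nqo1 stands farthest left in all 3 panels, at -2.11, -1.19 and -0.93, and the last of these is not called.

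NRF2 itself showed little difference between the shRNAs. The probe of Nfe2l2 lies on chromosome 2 (mm9, 75513771-75513830, minus strand). Its polysomal log2 signal was 12.82, 12.81, 12.80 and 12.69 on the scramble arrays and 12.84, 12.87, 12.78 and 12.76 on the eIF6 shRNA arrays. The groups overlapped, and the polysomal change was 0.03 (95% interval -0.11 to 0.18, adjusted p = 0.815 from limma). The subpolysomal log2 signal was 12.68, 12.68, 12.52 and 12.61 in scramble and 12.51, 12.49, 12.42 and 12.57 in eIF6 shRNA cells. Here 3 of the 4 eIF6 shRNA arrays lay below all scramble arrays, and the change of -0.13 (95% interval -0.27 to 0.02) did not pass the test (adjusted p = 0.195 from limma). On each of the 4 slides the subpolysomal difference was below 0, between -0.18 and -0.11. Translational efficiency, the polysomal minus the subpolysomal change, differed by 0.16 (95% interval -0.04 to 0.36, adjusted p = 0.552 from limma). The log2 signal of Nfe2l2 had an SD of 0.05 to 0.07 (n = 4) between the arrays of a group.

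Keap1, the brake on NRF2, overlapped between the shRNAs in both fractions. Its probe lies on chromosome 9 (mm9, minus strand) and its 60 bases align over a span of 441 bases, from 21035292 to 21035732. The polysomal log2 signal was 11.58, 11.75, 11.57 and 11.96 in scramble and 11.25, 11.83, 11.49 and 11.74 in eIF6 shRNA cells, a change of -0.14 (adjusted p = 0.593 from limma). In subpolysomes it gave 11.73, 11.82, 11.82 and 11.62 in scramble and 11.55, 11.67, 11.60 and 12.08 in eIF6 shRNA cells, where replicate 4 was the highest array of all. The subpolysomal change was -0.02 (95% interval -0.33 to 0.28, adjusted p = 0.931 from limma).

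Nqo1 encodes NAD(P)H quinone dehydrogenase, a classical readout of NRF2 activity, and its probe lies on chromosome 8 (mm9, 109912440-109912499, minus strand). Its log2 signal on polysomes was 9.74, 9.97, 9.54 and 9.94 on the 4 scramble arrays. It was 7.59, 7.56, 7.69 and 7.89 on the 4 eIF6 shRNA arrays. Every eIF6 shRNA array lay far below every scramble array. The polysomal change was -2.11 (SE 0.16, 95% interval -2.45 to -1.78, adjusted p = 1.33e-07 from limma), and within the 4 slides it ran from -2.38 to -1.84.

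In subpolysomes Nqo1 gave 9.07, 8.88, 9.09 and 8.70 in scramble cells and 7.87, 7.27, 8.03 and 7.82 in eIF6 shRNA cells. Again the groups did not overlap, and the change was smaller than on polysomes. It came to -1.19 (SE 0.16, 95% interval -1.52 to -0.85, adjusted p = 6.01e-05 from limma). The change in translational efficiency was -0.93 (SE 0.22, 95% interval -1.40 to -0.45), below 0 on 4 of 4 slides (-1.32 to -0.52). It did not pass the threshold (unadjusted p = 0.00088, adjusted p = 0.0545 from limma). It was called under 6 alternatives, among them the slide as a block (adjusted p = 0.017), and over all alternatives the adjusted p ran from 0.00856 with normexp background correction to 1.00 with spike-in scaling, where the value was -1.27. In this comparison 0 of the 9 genes were called, against 1.1% of all genes lower and 0.403% higher, and Nqo1 was the only one of the 9 at an unadjusted p under 0.05, which 12.5% of all genes reached in either direction. The other 8 genes had values between -0.21 (Gclm) and 0.48 (Hmox1), and the median of the 9 was 0.16 against 0.017 over all genes.

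The 2 enzymes of thiol repair, Srxn1 and Txn1, had smaller changes than Nqo1 in both fractions. Srxn1 (sulfiredoxin, probe on chromosome 2, mm9, 151937009-151937068, plus strand) gave polysomal log2 signals of 13.58, 13.62, 13.70 and 13.23 in scramble and 13.10, 13.00, 13.20 and 12.73 in eIF6 shRNA cells. In subpolysomes the values were 14.01, 14.00, 13.94 and 14.09 in scramble and 13.16, 13.31, 13.22 and 13.35 in eIF6 shRNA cells. The groups were apart in both fractions, on polysomes narrowly, between the lowest scramble array (replicate 4, 13.23) and the highest eIF6 shRNA array (13.20). The polysomal change was -0.53 (SE 0.11, 95% interval -0.77 to -0.28, adjusted p = 0.00324 from limma). The subpolysomal change was -0.75 (SE 0.11, 95% interval -0.99 to -0.50, adjusted p = 0.00022 from limma). Translational efficiency differed by 0.22 (95% interval -0.12 to 0.57, adjusted p = 0.635 from limma). The polysomal call was lost under 3 of 19 alternatives. These were without replicate 2 (-0.50, adjusted p = 0.0537 from limma), spike-in scaling (-0.97, adjusted p = 0.440 from limma) and the methods' t-test (Benjamini-Hochberg adjusted p = 0.0623). The subpolysomal call was lost with spike-in scaling alone (-0.97, adjusted p = 0.753 from limma).

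Txn1 (thioredoxin, probe on chromosome 4, mm9, 57956677-57956736, minus strand) gave polysomal log2 signals of 14.70, 14.69, 14.88 and 14.40 in scramble and 14.37, 14.32, 14.42 and 14.29 in eIF6 shRNA cells. The lowest scramble array, replicate 4, lay within the range of the eIF6 shRNA arrays, and the other 3 lay above all of them. In subpolysomes it gave 13.64, 13.84, 13.70 and 13.73 in scramble and 13.22, 13.21, 13.20 and 13.48 in eIF6 shRNA cells, without overlap. The polysomal change was -0.32 (SE 0.10, adjusted p = 0.0331 from limma) and the subpolysomal change was -0.45 (SE 0.10, adjusted p = 0.00431 from limma). The polysomal call did not hold without replicate 1, 2 or 3, where the change was -0.31, -0.30 and -0.27 (adjusted p = 0.174, 0.175 and 0.179). It was lost under 9 of 19 alternatives in all, among them scaling to the 75th percentile (-0.29, adjusted p = 0.130), no filter (adjusted p = 0.0506) and the authors' log2 values (adjusted p = 0.0522). The subpolysomal call was lost without replicate 2 (-0.39, adjusted p = 0.078).

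The subunits of glutamate-cysteine ligase, the first enzyme of glutathione synthesis, were not called in either fraction. Gclc (catalytic subunit, probe on chromosome 9, mm9, 77641296-77641355, plus strand) had a polysomal log2 signal of 12.26, 12.51, 12.33 and 12.73 in scramble and 12.38, 12.83, 12.81 and 12.93 in eIF6 shRNA cells. The groups overlapped, and the difference was 0.28 (adjusted p = 0.163 from limma). In subpolysomes it gave 12.24, 12.57, 12.55 and 12.40 in scramble and 12.40, 12.49, 12.60 and 12.61 in eIF6 shRNA cells. These values ran through each other, and the difference was 0.08 (95% interval -0.20 to 0.37). Gclm (modifier subunit, probe on chromosome 3, mm9, plus strand, aligned over 2636 bases from 121962174 to 121964809) gave polysomal log2 signals of 8.74, 8.63, 8.93 and 8.46 in scramble and 8.96, 8.94, 8.57 and 9.0 in eIF6 shRNA cells. In subpolysomes it gave 6.02, 6.72, 6.21 and 6.47 in scramble and 6.81, 6.62, 7.05 and 6.49 in eIF6 shRNA cells. These groups overlapped as well. The differences were 0.18 on polysomes (95% interval -0.17 to 0.53) and 0.39 in subpolysomes (95% interval 0.04 to 0.74), with adjusted p = 0.526 and 0.104 from limma. Neither subunit had a lower mean in eIF6 shRNA cells in either fraction.

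Hmox1, haem oxygenase 1, had the widest spread of the 9 genes in a single group. Its 2 probes lie on chromosome 8 (mm9, plus strand) at 77620797-77620856 and 77624207-77624266, and the gene value is their mean. The polysomal log2 signal was 10.49, 10.60, 10.76 and 10.40 in scramble and 10.93, 10.87, 10.73 and 10.55 in eIF6 shRNA cells. In subpolysomes it was 10.46, 10.39, 10.63 and 11.07 in scramble and 10.78, 10.94, 10.72 and 9.004 in eIF6 shRNA cells. Replicate 4 of the eIF6 shRNA subpolysomal arrays lay far below the rest, and it did so on both probes, at 10.64 against 12.49 to 12.63 on the brighter and at 7.36 against 8.94 to 9.25 on the dimmer. The subpolysomal change was -0.28 (SE 0.32, adjusted p = 0.594 from limma). Without that array it was 0.18 (adjusted p = 0.461), and without all 4 arrays of replicate number 4 it was 0.32 and called (adjusted p = 0.0358), so its direction rests on 1 array. The polysomal difference of 0.21 did not pass the test (95% interval -0.49 to 0.90, adjusted p = 0.738 from limma).

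Catalase had higher means with the eIF6 shRNA in both fractions and was not called. The polysomal log2 signal of Cat was 7.86, 7.86, 7.29 and 8.85 in scramble and 8.24, 8.54, 8.95 and 9.89 in eIF6 shRNA cells. In subpolysomes it was 7.82, 8.17, 8.17 and 7.15 in scramble and 8.60, 8.34, 8.43 and 8.71 in eIF6 shRNA cells. The polysomal groups overlapped through replicate 4 of the scramble arrays, and the subpolysomal groups did not overlap. The polysomal difference was 0.94 (SE 0.36, 95% interval 0.17 to 1.70, unadjusted p = 0.0195, adjusted p = 0.0786 from limma) and the subpolysomal difference was 0.69 (95% interval -0.08 to 1.45, adjusted p = 0.185 from limma). Within the 4 slides the polysomal difference ran from -0.31 to 2.03 and was below 0 on 1 of them. The polysomal difference was called without replicate 4 (0.90, adjusted p = 0.00806) and with the slide as a block (adjusted p = 0.0346). Over all alternatives its adjusted p ran from 0.00806 to 0.653. Its probes, on the minus strand of chromosome 2 (mm9, 103294487-103294546, and 103297086-103300428 with the 60 bases spread over 3343), had similar polysomal differences of 0.87 and 1.01. They disagreed on the place of the mRNA in the gradient. In scramble cells polysomal minus subpolysomal signal was -0.40 (SE 0.33) for the brighter and 0.67 (SE 0.40) for the dimmer probe, and neither was called.

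**Figure D3:**
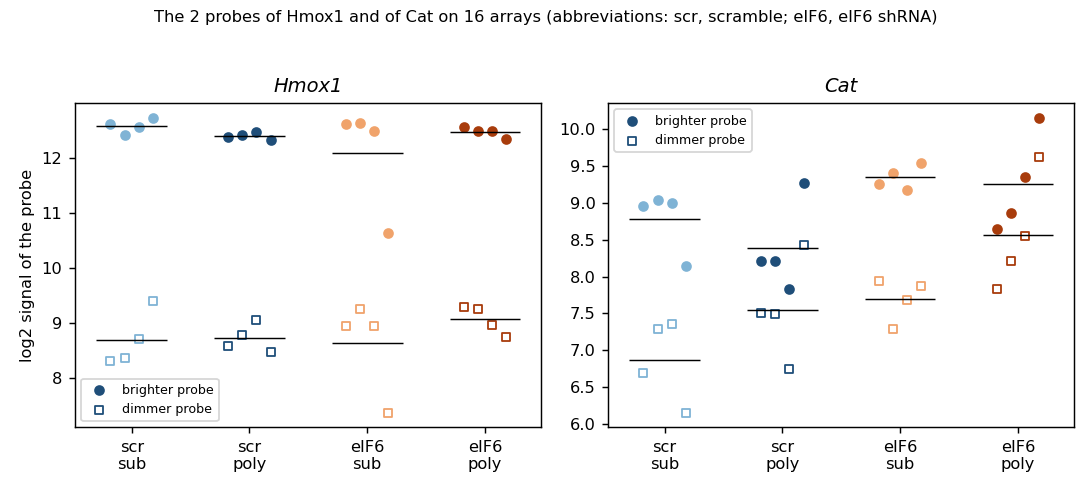
Log2 signal of each probe of Hmox1 and Cat (vertical axis) on the 4 arrays of each group (horizontal axis; scr, scramble; eIF6, eIF6 shRNA; sub, subpolysomal; poly, polysomal). Filled circles are the brighter and open squares the dimmer probe, and lines are group means. Both Hmox1 probes are low on replicate 4 of the eIF6 shRNA subpolysomal arrays (10.64 and 7.36).

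The second question was where in the gradient each mRNA lay, taken as polysomal minus subpolysomal log2 signal within each shRNA. In scramble cells Gclm, Txn1 and Nqo1 were higher in polysomal RNA and Srxn1 was lower. In eIF6 shRNA cells Gclm, Txn1 and Nfe2l2 were higher and none was lower. Gclm had the largest difference of the 9 genes, 2.34 in scramble (SE 0.17, adjusted p = 2.04e-08 from limma) and 2.13 in eIF6 shRNA cells (SE 0.17, adjusted p = 6.60e-08 from limma), that is 5.05-fold and 4.37-fold. Txn1 followed with 0.94 (SE 0.10) and 1.07 (SE 0.10), and its lowest polysomal array lay above its highest subpolysomal array in both kinds of cells. How many of all genes lay apart in this way between the fractions was not counted. Of the 9 genes, 3 were called higher and 1 lower in scramble cells, where 31.7% and 28.4% of all genes were, and 3 higher and 0 lower in eIF6 shRNA cells, where 32.1% and 28.7% were.

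For Nqo1 the difference between the fractions was 0.86 in scramble cells (95% interval 0.53 to 1.196, adjusted p = 0.000239 from limma) and -0.07 in eIF6 shRNA cells (95% interval -0.40 to 0.27, adjusted p = 0.738 from limma). The test of the difference between these is the change in translational efficiency given above. For Nfe2l2 the difference was 0.16 in scramble (adjusted p = 0.0576 from limma) and 0.32 in eIF6 shRNA cells (adjusted p = 0.000905 from limma). In scramble cells it was called with scaling to the 75th percentile (0.37, adjusted p = 0.000742 from limma). It was also called there without replicate 4 (0.18, adjusted p = 0.0314 from limma). The lowest polysomal and highest subpolysomal arrays of Nfe2l2 stood at 12.69 and 12.68 in scramble and at 12.76 and 12.57 in eIF6 shRNA cells. These gaps too were not set against all genes. Srxn1 was -0.47 in scramble cells (adjusted p = 0.00232 from limma) and -0.25 in eIF6 shRNA cells (adjusted p = 0.0703 from limma, and 0.0403, a call, with the slide as a block). Its scramble call was lost with scaling to the 75th percentile (-0.29, adjusted p = 0.0731 from limma). For Nfe2l2 and Srxn1 too, scramble and eIF6 shRNA cells are compared by the change in translational efficiency. It was 0.16 and 0.22 and was called for neither. Keap1, Hmox1, Gclc and Cat were between -0.15 and 0.41 in both and were not called. Where an mRNA lies depends on the scaling, because each RNA was labelled on its own. Scaled to the spike-in probes, the median of all genes stood at 1.499 in scramble and 1.27 in eIF6 shRNA cells and all 9 genes were called higher on polysomes, the value of Srxn1 turning to 1.44 in each. Against that median Srxn1 stood at -0.06 and 0.17, Gclm at 2.34 and 2.21, Txn1 at 1.30 and 1.44 and Nqo1 at 1.08 and 0.04.

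**Figure D4:**
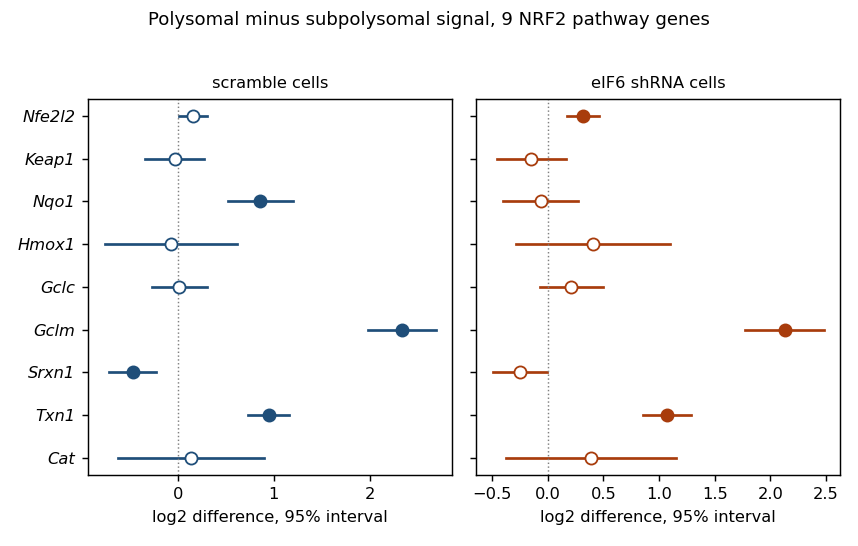
Polysomal minus subpolysomal log2 signal of each of the 9 genes in scramble and in eIF6 shRNA cells. Lines are 95% intervals of the limma fit and filled points are called at an adjusted p under 0.05. Gclm stands farthest right in both panels (2.34 and 2.13), and Nqo1 is at 0.86 in scramble and at -0.07 in eIF6 shRNA cells.

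The regulators around NRF2 and KEAP1 were read from a list of 12 genes, all of which passed the filter. Against 10.7% lower and 11.1% higher over all genes, 0 of the 12 were called lower on polysomes in eIF6 shRNA cells and 3 higher. These were Sqstm1 (0.59, adjusted p = 0.0176 from limma), the autophagy receptor p62, which sequesters KEAP1, Btrc (0.51), a ubiquitin ligase adaptor for NRF2, and Cul3 (0.21), the scaffold of the ligase that KEAP1 serves. In subpolysomes Bach1, a repressor at antioxidant response elements, fell (-0.32, adjusted p = 0.018 from limma) and Nfe2l1, which encodes the related factor NRF1, rose (0.56, adjusted p = 0.0107 from limma). Translational efficiency was called for 0 of the 12, against 1.1% of all genes lower and 0.403% higher. The median polysomal difference of the list was 0.18. Of the 5 calls named here, 0 held with each replicate number left out in turn. Scaled to the spike-in probes, which put the median of all genes at -0.48 on polysomes, Btrc and Cul3 lay below 0 (-0.0045 and -0.24).

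Other targets of NRF2 were read from a list of 30 genes, of which 29 were on the array and passed the filter. On polysomes 4 were called lower and 7 higher, and in subpolysomes 3 lower and 7 higher, with medians of 0.11 and 0.14. Over all genes 10.7% were called lower and 11.1% higher on polysomes, and 12.3% and 11.8% in subpolysomes. Cbr3, a carbonyl reductase, fell most, by 1.79 on polysomes (SE 0.10, adjusted p = 9.80e-09 from limma) and by 1.01 in subpolysomes, and its translational efficiency fell by 0.78 (adjusted p = 0.0121 from limma). The others called lower on polysomes were Abcc1 (-0.62), an exporter of glutathione conjugates, Blvrb (-0.52), biliverdin reductase B, and Trib3 (-0.29), a pseudokinase induced by stress. Blvrb was also called lower in translational efficiency (-0.83, adjusted p = 0.00798 from limma). In subpolysomes Abcc1 (-0.51) and Ftl1 (-0.20), the ferritin light chain, fell beside Cbr3.

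Of the 6 glutathione S-transferases tested, grouped after their values were seen, 3 were called higher on polysomes and 4 in subpolysomes and none lower. Over all genes 11.1% and 11.8% were called higher, a share that is no test of a group chosen in this way. With spike-in scaling none of the transferases was called and 4 of the 6 lay below 0 on polysomes. Gsta4 rose by 0.78 on polysomes and by 1.21 in subpolysomes (adjusted p = 0.00331 and 0.000102 from limma). In subpolysomes Gstm1 rose by 0.61 and Gstp1 by 0.52, and Ephx1, a microsomal epoxide hydrolase, rose by 0.55 on polysomes and by 0.58 in subpolysomes. Osgin1, an NRF2 target that restrains growth, rose on polysomes by 0.55 (SE 0.08, adjusted p = 0.000104 from limma). Gsta2 was higher on polysomes by 1.08 (adjusted p = 0.04999 from limma), where it was well above background on 3 of 4 scramble and 4 of 4 eIF6 shRNA arrays, and on no subpolysomal array. This call was lost under 9 of 18 alternatives, over which the value ran from 0.26 to 1.31. Fth1, the ferritin heavy chain, was the one target higher in translational efficiency (0.39, adjusted p = 0.0364 from limma). It stood at 0.11 when arrays were scaled to their 75th percentile and at -0.07 when scaled to the spike-in probes. Glutathione S-transferases and ferritins have close relatives and pseudogenes, and how far their probes cross-hybridize was not examined.

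Of 26 other antioxidant enzymes, all tested, 5 were called lower and 3 higher on polysomes, and 4 lower and 2 higher in subpolysomes. The shares over all genes were 10.7% lower and 11.1% higher on polysomes, and 12.3% and 11.8% in subpolysomes. Gpx7, a peroxidase of the endoplasmic reticulum, fell on polysomes (-3.01, SE 0.21, adjusted p = 8.29e-08 from limma), where 2 of the 4 eIF6 shRNA arrays were well above background. Its value there was -0.92 with normexp, which adds a fixed offset to every signal and so compresses dim ones. In subpolysomal RNA of eIF6 shRNA cells it was not well above background on any array, so that with the scanner's background correction it was at least 2.22-fold lower there (adjusted p = 4.76e-05 from limma), against 1.28-fold lower with normexp. Its called change in translational efficiency (-1.36) rests on that bound, and a larger subpolysomal fall than measured would make it smaller. This call was lost under 10 of 18 alternatives, over which the value ran from -1.89 to -0.57. Sod3, extracellular superoxide dismutase, fell by 2.55 on polysomes (SE 0.48). Gpx3, the plasma glutathione peroxidase, was well above background on the 4 scramble polysomal arrays alone and passed the filter only through them. With the scanner's background correction it was at least 2.06-fold lower on eIF6 shRNA polysomal arrays, and 1.11-fold lower with normexp. The group that let it in is the group tested as high. Its call (adjusted p = 0.000506, and 0.0123 with normexp, from limma) is therefore no separate support for a fall. Glrx2, a glutaredoxin of mitochondria, fell by 0.76 and 0.64, but its brightest of 3 probes stood at 0.0088 and -0.03. In subpolysomes Txn2, mitochondrial thioredoxin (-0.51), and Glrx, cytosolic glutaredoxin (-0.48), also fell. Among those that rose were Sesn3, a sestrin (0.52), Gpx4, which reduces lipid peroxides (0.39), and Oxr1 (0.38) on polysomes, and Msra, a methionine sulfoxide reductase (0.37), and Sod2, the mitochondrial superoxide dismutase (0.35), in subpolysomes.

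Over the 3 lists, 37 called values are given above, of which 14 were called with each replicate number left out in turn and 23 were not. The 14 are those of Cbr3, Gsta4 and Gpx7 in both fractions (not in translational efficiency), of Glrx2 in both fractions, of Blvrb, Osgin1, Sod3, Gpx3 and Oxr1 on polysomes and of Gstm1 in subpolysomes. Gpx3 is among them with the limit of its filter given above.

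**Figure D5:**
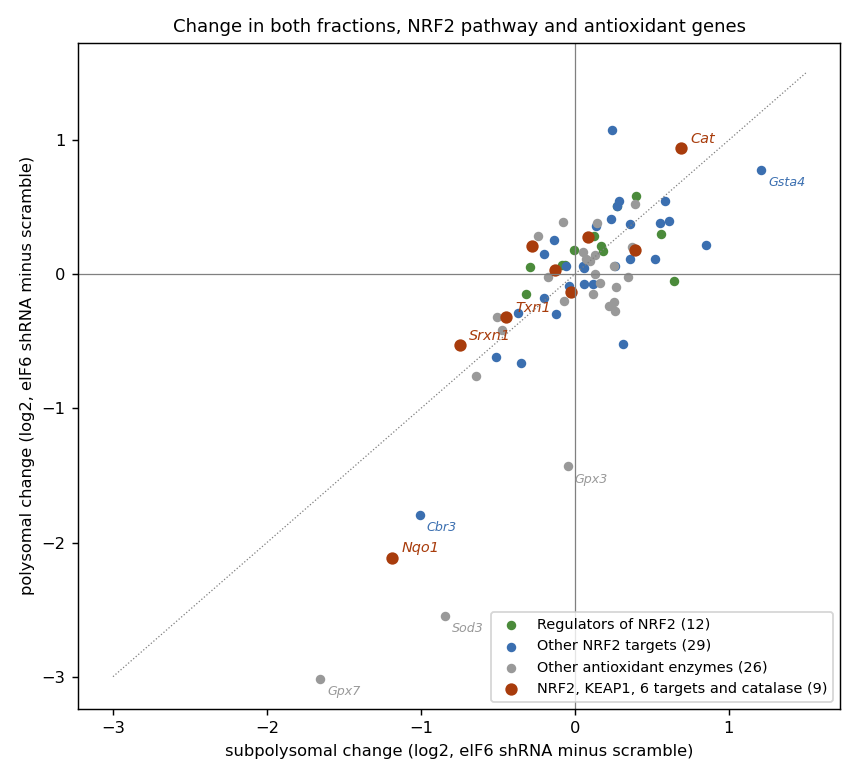
Polysomal change (vertical axis) against subpolysomal change (horizontal axis), both as log2 eIF6 shRNA minus scramble, for the 9 genes (red), 12 regulators of NRF2 (green), 29 other NRF2 targets (blue) and 26 other antioxidant enzymes (grey). On the dotted line both changes are equal. Nqo1 (-1.19, -2.11) lies near Cbr3 (-1.01, -1.79) and below the line, and Gpx7 and Gpx3 are drawn at their measured values although they were not well above background in some groups.

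The genes whose log2 signal ran most like that of Nfe2l2 over the 16 arrays were Eif1 (Pearson's r = 0.957), Zfp706 (0.954) and Csnk1g1 (0.948), among 14568 genes well above background on all arrays. For Hmox1 they were Ccdc157 (0.891), Pex10 (0.813) and Il17ra (0.781). These are descriptions over arrays that fall into the polysomal and the subpolysomal fraction and share one normalization. The 16 include the array low in Hmox1, replicate 4 of the eIF6 shRNA subpolysomal arrays, at 9.004. The Hmox1 correlations were not repeated without it, so they may rest on that 1 array.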

How the data were processed

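Polysomal and subpolysomal RNA of AML12 cells was measured on 16 one-colour Agilent arrays (SurePrint G3 Mouse), 4 per group. For each array the authors deposited the intensity of all 44397 spots (39429 probes). Feature Extraction had corrected it for background (10.7.7.1 per the labels, 10.7.3.1 per the file headers), with no normalization across arrays. The authors' second deposit is a quantile-normalized matrix of log2 values, and each of its columns had r of 0.995 to 1.000 against the scanner's log2 intensity for that array. Probe coordinates are mm9.

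Intensities were read in R 4.3.3 with the data.table package (version 1.17.8). They were log2 transformed. Outlier spots and uneven spots, as called by the scanner software, were dropped, and the log2 values of repeated probes were averaged. A probe stayed in (25262 did) if some group had 2 or more arrays with it well above background. The log2 values of these probes were quantile normalized and averaged per gene name (19367 genes, 19338 with a value on every array). Group means were fitted with limma 3.58.1 for 5 contrasts. The Benjamini-Hochberg adjustment covered every gene tested, with a threshold of 0.05. The procedure was checked on simulated data. The simulation gave each array independent noise and no slide effect, so it does not bear on deviations shared within a slide. Python 3.11.15 with matplotlib 3.10.9 made the plots.

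The members, gene lists and tests were chosen with earlier results of these data known. Besides the 9 genes and Eif6, the text names, per comparison of the shRNAs, the called genes with the 4 largest decreases and the 4 largest increases of each pathway list, and for Nfe2l2 and Hmox1 the 3 genes with the highest correlation. Marker lists covered hepatocytes, fibroblasts, macrophages and blood, endothelium and cholangiocytes. The alternatives were other scalings (75th percentile, 8 spike-in probes), normexp (offset 50), normalization before the filter or within each fraction, 3 other filters, the brightest probe, the authors' log2 values, slide or replicate number as a block, each replicate number left out, and the methods' t-test. One more, without the array low in Hmox1, was chosen after seeing the data. The error throughout is the difference between arrays of a group, which may be partly technical.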

Additional observations from a re-analysis of the deposited data

Results flagged for a closer look

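In 4 of 36 groups of 4 arrays (9 genes in 4 groups), 1 array lay far from the other 3 by Dixon's test, where chance gives about 1 in 20. Hmox1 was at 9.004 on replicate 4 of the eIF6 shRNA subpolysomal arrays, and the others were at 10.72 to 10.94. On the same array Txn1 was high, at 13.48 against 13.20 to 13.22. Nfe2l2 was at 12.69 on replicate 4 of the scramble polysomal arrays, and the others were at 12.80 to 12.82. Gclm was at 8.57 on replicate 3 of the eIF6 shRNA polysomal arrays, and the others were at 8.94 to 9.0. The cause was not tested.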

How the results depend on the processing

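The number of the 9 genes called stayed within 1.5 times the value given, except as follows. On polysomes (3 called) it was 1 with spike-in scaling and 1 with the methods' t-test after Benjamini-Hochberg adjustment. In subpolysomes (3) it was 0 with spike-in scaling and 5 with the methods' t-test unadjusted. In translational efficiency (0) it was 1, always Nqo1, with scaling to the 75th percentile, normexp background correction, each fraction normalized separately, the filters on all 4 arrays of a group and on 3 arrays of each group, and the slide as a block, and it was 2 with the methods' t-test unadjusted. For polysomal minus subpolysomal signal (4 in scramble, 3 in eIF6 shRNA cells) it was 9 and 9 with spike-in scaling. With each replicate number left out in turn it was 1 to 4 on polysomes, with the low count without replicate 2, 2 to 4 in subpolysomes, 0 to 0 in translational efficiency, and 4 to 5 and 3 to 3 for the fractions in scramble and eIF6 shRNA cells. Nqo1 on polysomes was called under all 19 alternatives (-2.68 to -1.82). Normalizing each fraction separately and the methods' t-test gave no value for one fraction against the other.

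Over all genes, spike-in scaling left 1033 called lower and 98 higher on polysomes (2072 and 2148 otherwise), 318 and 41 in subpolysomes (2390 and 2294) and 28 and 2 in translational efficiency (214 and 78). For polysomal minus subpolysomal signal it gave 399 lower and 13078 higher in scramble (5496 and 6134) and 498 and 10796 in eIF6 shRNA cells (5553 and 6223). Scaling to the 75th percentile gave 7624 and 4759 in scramble and 8265 and 4515 in eIF6 shRNA cells, and 494 and 57 in translational efficiency. Under spike-in scaling the median of all genes stood at -0.48 on polysomes, -0.22 in subpolysomes and -0.23 in translational efficiency. Against it Nqo1 stood at -2.20, -1.20 and -1.04, and Srxn1 at -0.50 and -0.75 on polysomes and in subpolysomes.

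Signs turned as follows. With spike-in scaling the polysomal values were -0.0045 for Btrc, -0.24 for Cul3, -0.16 for Gclc, -0.29 for Gclm, -0.15 for Gpx4, -0.24 for Hmox1, -0.43 for Nfe2l2 and -0.056 for Oxr1. The subpolysomal values were -0.21 for Eif6 and -0.13 for Gclc. Translational efficiency was -0.068 for Fth1, -0.033 for Gclc, -0.092 for Nfe2l2, -0.0035 for Srxn1 and -0.086 for Txn1. Polysomal minus subpolysomal signal was 1.72 for Hmox1, 1.85 for Keap1 and 1.44 for Srxn1 in scramble cells and 1.53 for Keap1, 1.31 for Nqo1 and 1.44 for Srxn1 in eIF6 shRNA cells. With scaling to the 75th percentile that signal was -0.025 for Cat and 0.12 for Keap1 in scramble cells, and the subpolysomal change was 0.073 for Ftl1 and 0.013 for Keap1. With normexp the last was 0.042. With the brightest probe Cat was at -0.40 and -0.093 between the fractions in scramble and eIF6 shRNA cells, and Glrx2 at 0.0088 on polysomes. Without the 1 eIF6 shRNA subpolysomal array low in Hmox1, a choice made after seeing the data, Hmox1 was at 0.18 in subpolysomes and at -0.044 between the fractions in eIF6 shRNA cells, and Keap1 at 0.0058 in translational efficiency.

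With each replicate number left out, values that turned in sign ranged as follows. Translational efficiency ran from -0.13 to 0.50 for Cat, -0.45 to 0.12 for Gclm, -0.093 to 0.74 for Hmox1 and -0.22 to 0.074 for Keap1. Subpolysomal changes ran from -0.043 to 0.075 for Eif6, -0.55 to 0.32 for Hmox1 and -0.18 to 0.045 for Keap1. Polysomal minus subpolysomal signal ran from -0.39 to 0.47 for Cat, -0.089 to 0.094 for Gclc, -0.17 to 0.12 for Hmox1 and -0.16 to 0.038 for Keap1 in scramble cells, and from -0.19 to 0.026 for Nqo1 in eIF6 shRNA cells, where Hmox1 ran from 0.030 to 0.57 with its sign kept. None of these values was called in the fit reported, and the cause was not tested.

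Same-numbered arrays mostly did not deviate together. Of 24 pairs, 3 had a correlation of deviations over 0.1, the highest 0.41 between the polysomal arrays of replicate 4. Of 16 arrays, 3 correlated best with their own number. Arrays of the same slide deviated together more often. Over 0.1 were 5 of 8 same-slide pairs within an shRNA, 3 of 8 within a fraction and 6 of 8 sharing neither. Of pairs sharing neither slide nor number it was 1 of 16, 1 of 17 and 1 of 17. The fit reported did not model the slide. With the slide as a block, 4, 3 and 1 of the 9 genes were called on polysomes, in subpolysomes and in translational efficiency, and 4 and 4 between the fractions. With the replicate number as a block, 2 of the 9 genes were called on polysomes, Txn1 having an adjusted p of 0.0601 from limma, 3 in subpolysomes, 0 in translational efficiency and 4 and 3 between the fractions.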
